A study of Mus musculus with 10 samples.

Results

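The 10 genes described here encode vascular growth factors and their receptors: the ligands Vegfa, Vegfb, Vegfc and Angpt1, the receptor tyrosine kinases Kdr, Flt1, Tek and Tie1, and the neuropilins Nrp1 and Nrp2. They were taken by symbol, with no filter on their values, from a table of 14623 genes, and all 10 symbols were found. The list itself was drawn up with earlier results of these data known. Their levels were followed across cell classes and genotypes, from the stromal and mural cells that could supply ligand to the endothelial cells that carry the receptors. The data are single-cell transcriptomes (Seq-Well S3, a microwell method that counts each captured transcript once by its unique molecular identifier, UMI) of the stromal vascular fraction (SVF), the cells that remain when adipocytes are removed from inguinal white adipose tissue (iWAT). Cells came from a lean Bbs8-/- mouse (Bbs8 KO) and a lean Bbs8+/+ mouse (Bbs8 WT), both 7 weeks old. BBS8 belongs to the BBSome, the protein complex that carries cargo out of the primary cilium.

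For the Bbs8 KO mouse the table held 8985 cells with 3144195 UMIs, and for the Bbs8 WT mouse 1929 cells with 715989 UMIs, at a median of 251 and 278 UMIs per cell. With 1 mouse per genotype, no statistical test of genotype was possible, and every genotype difference below is a difference between these mice. Cell barcodes carried 5 set codes per mouse, for example KO5_p2 or WT4_p3. The series' design text names 1 mouse per genotype, so the sets are given as technical values, but what the codes and their numbers (KO5 and KO6, WT3 and WT4) mark is not given in the sources used here. The study's methods describe a pair of arrays for each sample and pools of PCR reactions from every array, without tying either to these codes. Should the numbers stand for animals, a difference between WT3 and WT4 would be one between animals. Each Bbs8 KO set held 1635 to 2005 cells, each Bbs8 WT set 196 to 768. Ttc8, the gene of BBS8, had 0 UMIs in the 5 Bbs8 KO sets and 5 UMIs in Bbs8 WT, all of them in the set WT4_p2, which held the most cells of that mouse, so in the other 4 Bbs8 WT sets it does not check the label. Whether the deleted part covers the counted end of the transcript is not given in the sources used here. A total of 36 barcodes occurred in more than 1 set, 4 of them in 4 or more. Sex and strain are not given in the sources used here, and no lineage was sorted before the cells were loaded.

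VEGF ligands leave stromal, epithelial or muscle cells and bind receptor tyrosine kinases on the endothelium. KDR (VEGFR2) is the main signalling receptor for VEGFA, FLT1 (VEGFR1) binds VEGFA and VEGFB and can hold ligand away from KDR, and VEGFC acts chiefly through FLT4 and also KDR, while neuropilins present ligand to these receptors and serve class 3 semaphorins as well. Angiopoietin-1 from mural and stromal cells activates TEK (TIE2), with TIE1 as its partner, and stabilises vessels. In fat, these pathways couple the capillary bed to the growth of the depot.

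In the GRCm38 annotation the receptor genes lie at chr5:75932827-75978458 (Kdr, minus strand), chr5:147561604-147726011 (Flt1, minus), chr4:94739289-94874976 (Tek, plus) and chr4:118471191-118490061 (Tie1, minus). The neuropilins lie at chr8:128358604-128503363 (Nrp1, plus) and chr1:62703285-62818695 (Nrp2, plus). The ligand genes lie at chr17:46016993-46032369 (Vegfa, minus), chr19:6982473-6987651 (Vegfb, minus), chr8:54077606-54187096 (Vegfc, plus) and chr15:42424723-42676977 (Angpt1, minus). All are annotated as protein-coding.

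The start sites of the 4 receptor kinases are shown because these genes share the cell class in which their levels were highest. Each line holds the 250 bases before and the 50 after the start in RefSeq for GRCm38.p6, read 5′ to 3′ on the strand of the gene, at chr5:75978406-75978705 (Kdr, minus), chr5:147725962-147726261 (Flt1, minus), chr4:94739039-94739338 (Tek, plus) and chr4:118489800-118490099 (Tie1, minus). Capitals mark GGAA and its reverse complement TTCC, the core that ETS factors recognise; these 2 strings cannot overlap each other.
Kdr: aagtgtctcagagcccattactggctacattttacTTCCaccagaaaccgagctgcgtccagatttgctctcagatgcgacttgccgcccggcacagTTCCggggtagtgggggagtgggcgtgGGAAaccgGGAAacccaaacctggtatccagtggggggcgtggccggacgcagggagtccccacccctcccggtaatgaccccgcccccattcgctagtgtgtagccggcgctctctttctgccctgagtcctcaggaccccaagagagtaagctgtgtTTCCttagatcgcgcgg
Flt1: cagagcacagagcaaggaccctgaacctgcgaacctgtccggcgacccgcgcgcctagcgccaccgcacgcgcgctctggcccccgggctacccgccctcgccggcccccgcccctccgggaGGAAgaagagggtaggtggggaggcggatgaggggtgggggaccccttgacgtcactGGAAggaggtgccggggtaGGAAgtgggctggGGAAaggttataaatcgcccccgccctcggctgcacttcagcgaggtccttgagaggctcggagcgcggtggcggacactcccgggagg
Tek: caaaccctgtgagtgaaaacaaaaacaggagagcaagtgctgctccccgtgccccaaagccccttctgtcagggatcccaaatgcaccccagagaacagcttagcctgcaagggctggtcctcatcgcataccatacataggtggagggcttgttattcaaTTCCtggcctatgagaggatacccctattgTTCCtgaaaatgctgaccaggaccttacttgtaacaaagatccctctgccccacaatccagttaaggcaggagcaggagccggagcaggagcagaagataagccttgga
Tie1: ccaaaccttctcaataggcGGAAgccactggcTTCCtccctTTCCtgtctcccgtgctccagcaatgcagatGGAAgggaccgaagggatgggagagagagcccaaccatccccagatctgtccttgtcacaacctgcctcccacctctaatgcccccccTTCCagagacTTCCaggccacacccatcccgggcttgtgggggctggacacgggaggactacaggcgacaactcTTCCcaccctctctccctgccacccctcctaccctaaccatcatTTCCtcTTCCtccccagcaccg
The Tie1 window held 9 matches, a count that 1.59% of 32851 promoter windows reach. Kdr held 5 (reached by 28.6%), Flt1 held 4 (46.3%) and Tek held 2 (84.6%), against a median of 3 in all windows, 96.0% of which hold at least 1. The 4 receptors therefore did not share an unusual number of these letters, and a match is not a site of binding. Of the 10 genes, 9 had a window in this table, the exception being Angpt1.

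Cell classes were built by clustering without the 10 genes and without 52 further pathway genes, so that these genes did not make the classes, and each class was named from marker lists. There were 501 endothelial-like cells of Bbs8 KO against 166 of Bbs8 WT, 105 against 31 mural-like cells (pericytes and smooth muscle), and 1564 against 646 stromal-like cells. Stromal-like cells divided into P1-like (546 against 225 cells), P2-like (795 against 314) and a P3-like group of 223 against 107, named after the adipocyte precursor subpopulations P1 (stem cell-like), P2 (committed) and P3 (regulatory). In endothelial-like cells all 12 listed endothelial markers had UMIs in both mice, with a summed level of 9870 CPM for Bbs8 KO (sets 9410 to 10400) against 9240 CPM for Bbs8 WT (sets 8760 to 10100), where CPM is UMIs per 1000000 UMIs of the class. Each transcript is captured at its poly(A) end and counted once, so UMIs were not divided by gene length. The mural-like cells of Bbs8 WT rested on 9844 UMIs in all, so values there are coarse. Clusters that could not be named took up 37.2% of cells in the Bbs8 KO mouse and 21.8% in the other, and 2098 and 198 lymphocyte-like cells (T and B cell-like), which should lack the receptor kinases, served as the measure of free RNA. Intervals below are exact Poisson intervals for CPM, exact binomial intervals for shares and exact conditional intervals for ratios, all at 95%, and cover counting error only.

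Vegfa, the principal ligand of KDR, was found mostly in stromal-like cells. Its level there was 58.5 CPM (interval 42.2 to 79.1) for Bbs8 KO and 84.7 CPM (54.8 to 125) for Bbs8 WT. These cells held 42 of the 64 Vegfa UMIs of the Bbs8 KO mouse (65.6%) and 25 of the 27 of the Bbs8 WT mouse (92.6%). Stromal-like cells also carry more UMIs in all than endothelial-like cells, which had 4 Vegfa UMIs (19.1 CPM) in Bbs8 KO and 0 in Bbs8 WT. Macrophage-like cells had 0 in both mice, with upper limits of 15.6 and 68.6 CPM. In lymphocyte-like cells the level was 2.60 CPM in Bbs8 KO, so the stromal-like level was 22.5 times higher (interval 5.86 to 192), and in Bbs8 WT, with 0 lymphocyte-like UMIs, at least 1.58-fold higher against a floor of 3 UMIs over the class. A Vegfa UMI was seen in 2.30% and 2.79% of stromal-like cells (medians of 331 and 344 UMIs) against 0.0953% and 0 of 198 lymphocyte-like cells (281 and 239 UMIs).

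Within the stroma, Vegfa was higher in P3-like than in P1-like cells of both mice. From P1-like through P2-like to P3-like cells the level was 38.9, 57.6 and 114 CPM (interval of the last 56.9 to 204) for Bbs8 KO, and 9.57, 78.0 and 261 CPM (139 to 447) for Bbs8 WT. P3-like cells exceeded P1-like cells 2.93-fold in Bbs8 KO (interval 1.13 to 7.70), in 5 of 5 sets. In Bbs8 WT the ratio of P3-like to P1-like cells rested on 13 UMIs against 1 (27.3-fold, interval 4.10 to 1160) and held in 3 of 5 sets. Both orders leaned on 1 set. Without KO6_p2 the Bbs8 KO ratio was 1.89 and no longer exceeded counting error (0.555 to 5.96). The set WT3_p2 gave 8 of the 13 UMIs, and without it the Bbs8 WT ratio was 9.77 (5 UMIs against 1, interval 1.09 to 462) and P3-like cells exceeded P2-like cells 1.19-fold (0.323 to 3.70), against 3.35-fold (1.38 to 8.26) with it. In Bbs8 KO neither P3-like and P2-like cells (ratio 1.98, interval 0.862 to 4.29) nor P2-like and P1-like cells (1.48, 0.667 to 3.52) differed beyond counting error. Over all stromal-like cells the sets stood at 36.6, 63.2, 121, 46.4 and 32.0 CPM for Bbs8 KO and at 132, 182, 0, 74.1 and 42.8 CPM for Bbs8 WT, so that the ranges of the mice overlapped.

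Vegfb, a ligand of FLT1, and Vegfc, best known as a lymphatic growth factor, were rare. All cells of Bbs8 KO held 26 Vegfb UMIs, those of Bbs8 WT 12, and the stromal-like level was 6.97 CPM (5 UMIs) and 23.7 CPM (7 UMIs). Vegfc had 35 and 3 UMIs. In Bbs8 KO, P2-like cells held 11 of the Vegfc UMIs (30.2 CPM, interval 15.1 to 54.0) and P1-like cells 1 (3.89 CPM), a ratio of 7.76 (1.13 to 334) that no longer exceeded counting error when KO5_p3, KO6_p1, KO6_p2 or KO6_p3 was left out (ratios of 4.33 to 6.73). All 3 Vegfc UMIs of Bbs8 WT lay in P2-like cells (21.3 CPM). At these counts most class differences of either ligand were not detectable.

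**Figure D1:**
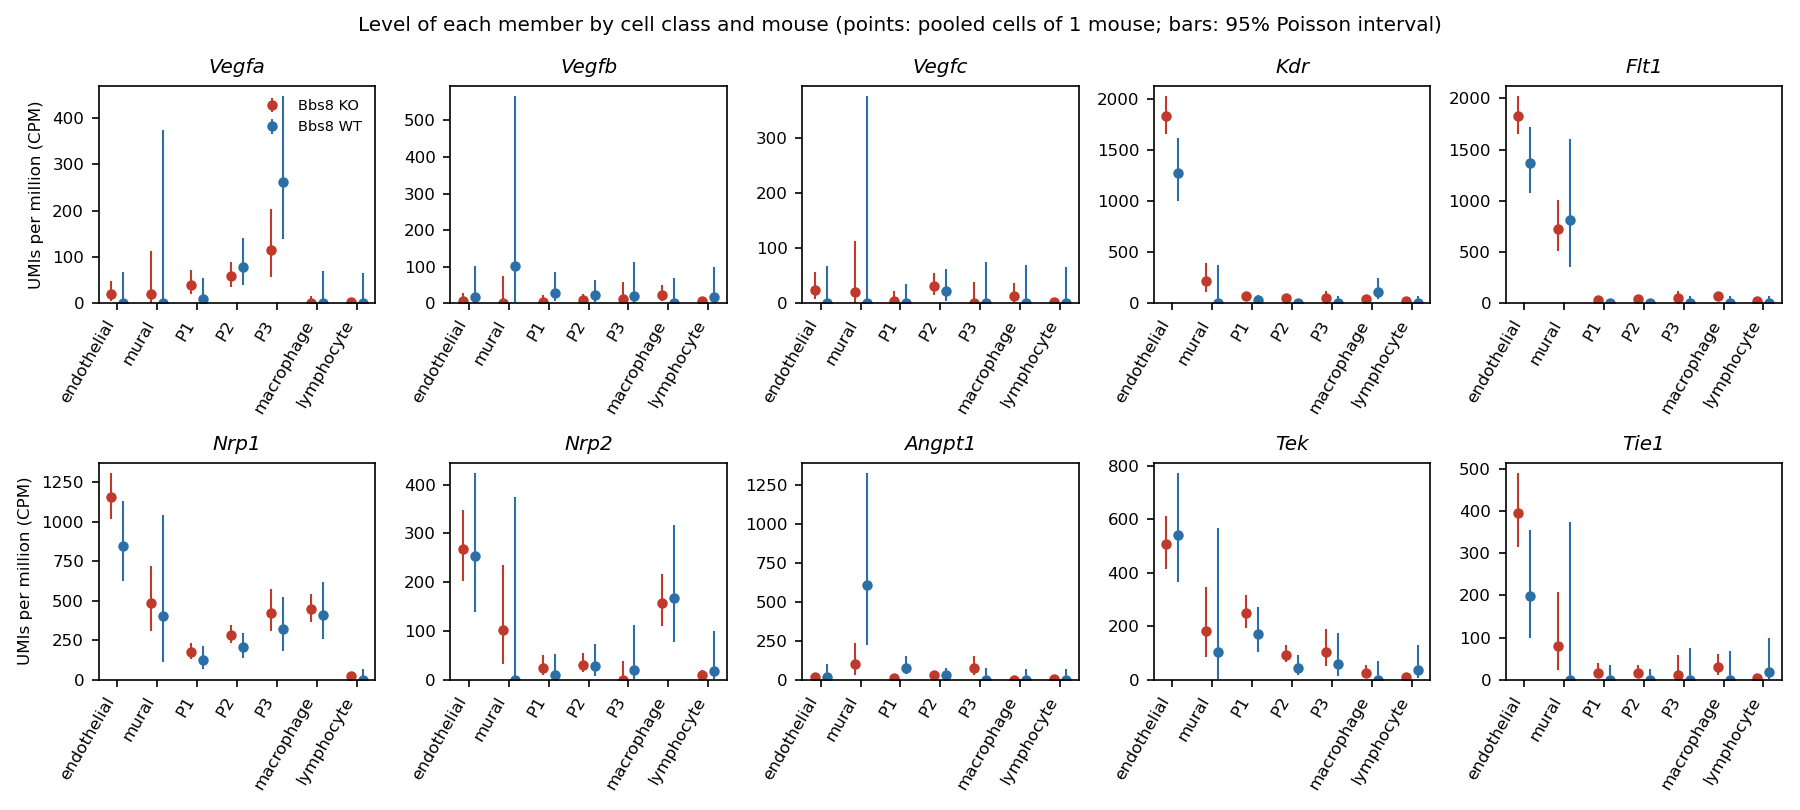
Level of each of the 10 genes (vertical axis, CPM, starting at 0 with its own scale in each panel) in 7 cell classes (horizontal axis), for the pooled cells of the Bbs8 KO mouse (red) and the Bbs8 WT mouse (blue), with 95% Poisson intervals. Vegfa has its highest points in P3-like cells (in Bbs8 KO not above P2-like cells beyond counting error), Kdr, Flt1 and Tie1 have theirs in endothelial-like cells, and Tek shows a step in P1-like cells (249 CPM in Bbs8 KO) beside its endothelial-like level of 506 CPM.

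Kdr was measured chiefly in endothelial-like cells. Endothelial-like cells had 1840 CPM (interval 1660 to 2030) in the Bbs8 KO mouse and 1280 CPM (1000 to 1620) in the Bbs8 WT mouse, and these cells held 64.3% and 80.7% of all Kdr UMIs. At least 1 Kdr UMI was seen in 38.3% of Bbs8 KO endothelial-like cells (median 307 UMIs per cell) against 0.715% of lymphocyte-like cells (median 281). In Bbs8 WT the shares were 24.7% (median 278) against 0 of 198 (median 239), with an upper limit of 1.85%. When each cell was thinned to 200 UMIs, which left out 131 Bbs8 KO and 40 Bbs8 WT endothelial-like cells, the endothelial-like shares were 25.1% and 17.5%. The endothelial-like level was 94.3 times the lymphocyte-like level in Bbs8 KO (interval 56.5 to 170), and at least 23.9-fold higher in Bbs8 WT, where lymphocyte-like cells had 0 UMIs. In both mice this order held in 5 of 5 sets.

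Flt1 shared this pattern and was also measured in mural-like cells. In endothelial-like cells it stood at 1830 CPM (1650 to 2020) for Bbs8 KO and 1370 CPM (1080 to 1720) for Bbs8 WT. In mural-like cells it stood at 728 CPM (510 to 1010, 36 UMIs) and 813 CPM (351 to 1600, 8 UMIs). Endothelial-like cells therefore exceeded mural-like cells 2.51-fold in Bbs8 KO (1.78 to 3.64, 5 of 5 sets), while in Bbs8 WT the ratio of 1.69 (0.814 to 4.05) did not exceed counting error. For Kdr the same ratio in Bbs8 KO was 8.26 (4.56 to 16.7), and the Bbs8 WT mural-like cells had 0 Kdr UMIs. Flt1 made up 60% of the UMIs of the 4 receptors in mural-like cells of Bbs8 KO (46.5 to 72.4) and 40.0% in endothelial-like cells (36.9 to 43.2). Beside these values stand the endothelial markers of the mural-like cells, 12 of 12 with UMIs in Bbs8 KO (2830 CPM, sets 2450 to 3580) and 8 of 12 in Bbs8 WT (2130 CPM, sets 1330 to 6250). How much of the mural-like receptor level came with that endothelial RNA was not tested.

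Tie1, the partner of TEK, had the fewest UMIs of the 4 receptors in endothelial-like cells. It stood at 396 CPM in endothelial-like cells of Bbs8 KO (315 to 491, 83 UMIs) and 198 CPM of Bbs8 WT (99.1 to 355, 11 UMIs), 59.3% and 64.7% of its UMIs. The lymphocyte-like level was 3.90 CPM for Bbs8 KO and 17.9 CPM for Bbs8 WT, the latter from 1 UMI. In Bbs8 WT the 2 sets WT3_p3 and WT4_p3 had no endothelial-like Tie1 UMI.

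Tek, the angiopoietin receptor, did not follow the other 3 receptors. Endothelial-like cells were highest, at 506 CPM (414 to 612) for Bbs8 KO and 541 CPM (365 to 773) for Bbs8 WT, yet they held 34.5% and 41.1% of its UMIs, and stromal-like cells held 35.2% and 37.0%. Among stromal-like cells Tek was highest in P1-like cells, at 249 CPM (192 to 318) for Bbs8 KO and 172 CPM (102 to 272) for Bbs8 WT. P2-like cells had 93.3 and 42.5 CPM, and P3-like cells 104 and 60.3 CPM. The ratio of P2-like to P1-like cells was 0.375 in Bbs8 KO (0.240 to 0.576) and 0.247 in Bbs8 WT (0.0802 to 0.649). The latter was 0.0989 without WT3_p1, and 0.412 without WT4_p2, where it no longer exceeded counting error (0.123 to 1.25). P2-like and P3-like cells did not differ beyond it in Bbs8 KO (1.11, 0.490 to 2.30) or Bbs8 WT (1.42, 0.229 to 6.64).

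By set, Tek in P1-like cells of Bbs8 KO was 244, 250, 225, 298 and 222 CPM, above P2-like cells in each set (92.0, 122, 85.3, 59.2 and 103 CPM). In Bbs8 WT the P1-like values were 216, 372, 155, 178 and 0 CPM and the P2-like values 211, 43.1, 0, 0 and 29.4 CPM, so that 4 of 5 sets had the higher value in P1-like cells and WT4_p3 did not. A Tek UMI was seen in 10.4% of P1-like cells of Bbs8 KO (median 331 UMIs) against 0.334% of lymphocyte-like cells, and in 6.67% (median 338) against 1.01% in Bbs8 WT. After thinning to 200 UMIs the P1-like shares were 5.24% and 4.02%, and the lymphocyte-like shares 0.249% and 0.719%.

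Tek gave a larger share of the receptor UMIs in the stromal groups than in endothelial-like cells. Tek gave 11.1% of the UMIs of the 4 receptors in endothelial-like cells of Bbs8 KO (9.16 to 13.2) and 16% of Bbs8 WT (11 to 22). In P1-like cells it gave 69.6% (59.1 to 78.7) and 85.7% (63.7 to 97.0), in P2-like cells 47.2% (35.3 to 59.3) and 100% (6 of 6 UMIs), and in P3-like cells 47.6% (25.7 to 70.2) and 100% (3 of 3 UMIs). In lymphocyte-like cells it gave 20% (9.58 to 34.6) and 66.7% (9.43 to 99.2, 2 of 3 UMIs). In the 457 Bbs8 KO and 206 Bbs8 WT P1-like cells with no UMI of the 12 endothelial markers, Tek stood at 293 CPM (223 to 378) and 174 CPM (99.6 to 283), against 249 and 172 CPM in all P1-like cells, while Kdr stood at 39.7 and 10.9 CPM and Flt1 at 19.8 and 0 CPM.

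**Figure D2:**
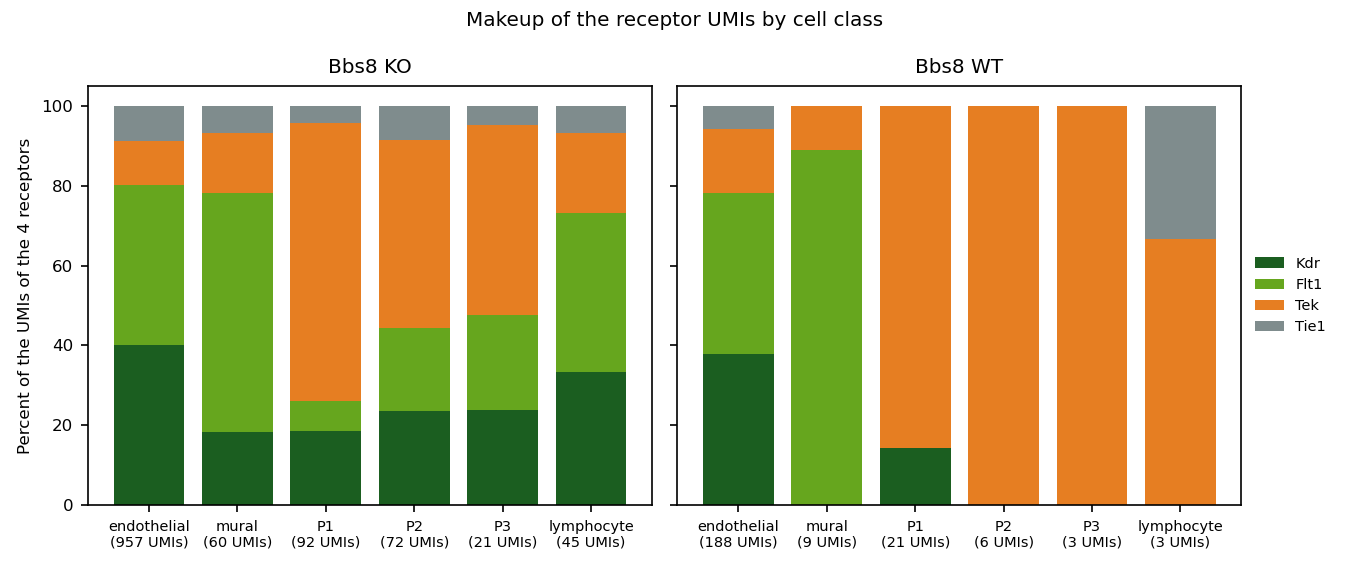
Share of the UMIs of Kdr, Flt1, Tek and Tie1 given by each receptor (stacked bars, percent, summing to 100) in 6 cell classes of the Bbs8 KO mouse (left) and the Bbs8 WT mouse (right), with the number of UMIs under each bar. Tek gives 11.1% and 16% in endothelial-like cells and 69.6% and 85.7% in P1-like cells. Bars with 9 or fewer UMIs carry wide intervals.

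Angpt1, the ligand that activates TEK, was low and had its highest level in mural-like cells. Mural-like cells had 5 UMIs in Bbs8 KO (101 CPM, 32.8 to 236) and 6 in Bbs8 WT (610 CPM, 224 to 1330), the latter from 2 cells. Stromal-like cells had 20 UMIs (27.9 CPM, 17.0 to 43.0) and 12 UMIs (40.6 CPM, 21.0 to 71.0). The stromal-like level was 0.276 times the mural-like level in Bbs8 KO (0.100 to 0.940) and 0.0667 times in Bbs8 WT (0.0232 to 0.217), and mural-like cells were higher in 3 of 5 and 2 of 5 sets. The other sets had 0 mural-like UMIs. In Bbs8 KO the ratio no longer exceeded counting error without KO5_p2, KO6_p2 or KO6_p3 (0.25 to 0.429). Stromal-like cells, the more numerous, held 37.7% and 46.2% of all Angpt1 UMIs against 9.43% and 23.1% in mural-like cells. Monocyte-like cells held 7 UMIs in Bbs8 KO (41.5 CPM, 16.7 to 85.6, 13.2% of the UMIs) and 1 in Bbs8 WT, epithelial-like cells 0 and 4, and cells of unnamed clusters 28.3% and 7.69% of the UMIs. Macrophage-like cells had 0 in both mice, with upper limits of 15.6 and 68.6 CPM. Within the stroma Angpt1 stood at 11.7, 27.4 and 72.6 CPM from P1-like through P3-like cells of Bbs8 KO (3, 10 and 7 UMIs) and 76.6, 28.4 and 0 CPM in the same order for Bbs8 WT (8, 4 and 0 UMIs). Whether the mice differed in this order was not tested.

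The neuropilins had the broadest pattern. Nrp1 stood at 1160 CPM in endothelial-like cells of Bbs8 KO (1020 to 1310) and 848 CPM of Bbs8 WT (623 to 1130), 4.40 times (3.63 to 5.35) and 4.32 times (2.87 to 6.45) the stromal-like level, in 5 of 5 sets each. Macrophage-like cells had 449 CPM (367 to 543) and 409 CPM (256 to 619), and mural-like cells 485 and 406 CPM, against 20.8 and 0 CPM in lymphocyte-like cells. P1-like cells, where stromal Tek was highest, had the lowest stromal Nrp1, with 175 and 124 CPM in P1-like, 283 and 206 CPM in P2-like and 425 and 322 CPM in P3-like cells. P3-like cells exceeded P1-like cells 2.43-fold (1.55 to 3.79, 5 of 5 sets) in Bbs8 KO and 2.58-fold (1.17 to 5.84, 3 of 5 sets) in Bbs8 WT, where the ratio was 1.74 without WT4_p2 and 2.03 without WT4_p3 and then did not exceed counting error.

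Nrp2, which binds VEGFC, was measured in macrophage-like as well as in endothelial-like cells. It stood at 267 CPM (202 to 347) and 253 CPM (138 to 424) in endothelial-like cells and at 157 CPM (110 to 216) and 167 CPM (76.5 to 317) in macrophage-like cells. The ratio of the 2 classes was 1.71 in Bbs8 KO (1.11 to 2.66) and 1.51 in Bbs8 WT, where it did not exceed counting error (0.609 to 3.96). The Bbs8 KO ratio did not exceed it either without KO6_p2 (1.57, 0.961 to 2.58) or KO6_p3 (1.51, 0.922 to 2.51). Stromal-like cells had 23.7 and 20.3 CPM. All 6 receptors and coreceptors were thus highest in endothelial-like cells of both mice, over endothelial-like, mural-like, stromal-like, macrophage-like and lymphocyte-like cells, although without the sets coded WT3 this held for 4 of the 6 in Bbs8 WT, and without cells that held a UMI of another lineage for 5 of the 6 in Bbs8 KO.

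The endothelial-like cells fell into 2 clusters with different receptor levels. The cluster led by Btnl9, Cdh5 and the lipoprotein anchor Gpihbp1 held 192 Bbs8 KO and 78 Bbs8 WT cells, and the cluster led by Plvap and Vwf held 309 and 88. By fold over all other cells, Kdr was among the 10 leading genes of the Btnl9 cluster and Flt1 among those of the Plvap and Vwf cluster. Neither cluster was made with the 10 genes, and the comparison is a description. Kdr stood at 2540 CPM in the Btnl9 cluster against 1090 CPM in the Plvap and Vwf cluster of Bbs8 KO (ratio 2.32, interval 1.85 to 2.92), and at 1880 against 751 CPM in Bbs8 WT (2.50, 1.48 to 4.34). Tek showed the same order, at 731 against 266 CPM (2.75, 1.75 to 4.42) and 842 against 273 CPM (3.08, 1.32 to 8.01), in 5 of 5 sets of each mouse. The 12 endothelial markers, none of them among the 10 genes, moved with these receptors, at 12900 against 6690 CPM (1.92, 1.75 to 2.11) and 12200 against 6550 CPM (1.87, 1.56 to 2.25). For Flt1 and Nrp1 the ratios were 1.49-fold (1.21 to 1.84) and 1.51-fold (1.16 to 1.98) in Bbs8 KO and 1.82 (1.12 to 2.99) and 1.98 (1.06 to 3.83) in Bbs8 WT. Nrp2 did not differ beyond counting error in either mouse (1.35, 0.767 to 2.40, and 1.5, 0.455 to 5.23), and Tie1 did not differ beyond counting error in either mouse (1.17, 0.741 to 1.85, and 1.35, 0.342 to 5.57). The Bbs8 WT ratios leaned on single sets, as Kdr was 1.82 without WT4_p2 (0.982 to 3.47), and Tek 2.41 without WT3_p1 (0.951 to 6.88), 2.67 without WT3_p3 (0.948 to 8.58) and 5.16 without WT4_p3. Flt1 was 1.45 without WT3_p1 (0.838 to 2.55) and 1.51 without WT4_p2 (0.831 to 2.78), and Nrp1 did not exceed counting error without WT3_p1, WT3_p3, WT4_p2 or WT4_p3 (1.61 to 2.31). Cells of the Btnl9 cluster were also deeper in Bbs8 KO, with a median of 426 UMIs against 265, while in Bbs8 WT the medians were 282 and 278.

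**Figure D3:**
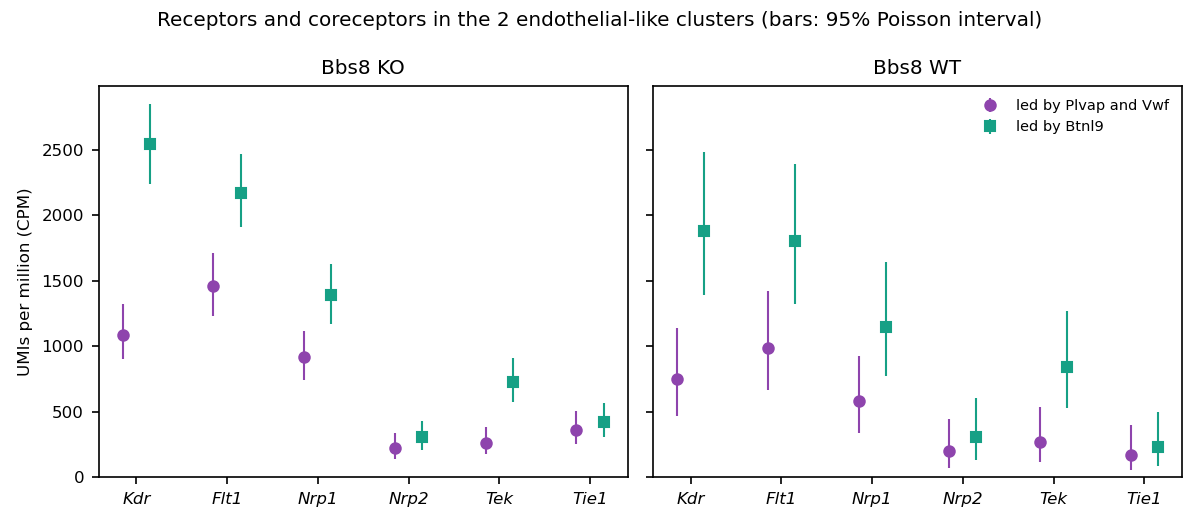
Levels of 6 receptors and coreceptors (vertical axis, CPM) in the endothelial-like cluster led by Plvap and Vwf (purple circles) and that led by Btnl9 (green squares), for each mouse, with 95% Poisson intervals. Kdr and Tek are more than 2-fold higher in the Btnl9 cluster of both mice, and the Tie1 intervals overlap.

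In endothelial-like cells of Bbs8 KO, 207 held a Flt1 UMI and 192 a Kdr UMI, and 110 held both. Kdr was seen in 53.1% of the cells with Flt1 and in 27.9% of those without, and in Bbs8 WT in 34.9% and 21.1%. Over the 10 pairs of Kdr, Flt1, Tek, Tie1 and Nrp1, the share of cells with one gene was higher in cells with the other for all 10 in Bbs8 KO and for 7 in Bbs8 WT. In the other 3 pairs of Bbs8 WT, with 4, 2 and 1 cells that held both, Tek was seen in 9.76% of the cells with Kdr and in 14.4% of those without, Tie1 in 4.65% and 6.50% by Flt1, and Tie1 in 4.55% and 6.25% by Tek. Nrp1 was seen in 49.0% of Bbs8 KO cells with Kdr and in 23.9% of those without. Deeper cells hold more of every gene, and the part of depth in this overlap was not tested.

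The question of genotype was asked for each class with the ratio of Bbs8 KO to Bbs8 WT, on a log2 scale after 5 CPM were added to both levels, so that the change of low genes is understated. The intervals beside these values are those of the plain ratio. A gene was called past the fold at a 2-fold difference (1 on the log2 scale) with at least 10 UMIs over both mice. In endothelial-like cells 0 of the 6 genes with 10 UMIs passed in either direction, and the sets of the mice overlapped for all 6. Over all 4860 genes with 10 UMIs in this class, 24.7% were past the fold upward and 8.70% downward, 6.09% did not overlap, and among the 3150 of them with a UMI in every set 16.5% were past it upward and 9.49% downward. The median over the 6 genes was 0.43, against 0.21 over all genes.

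The summed level of the 4 receptors in endothelial-like cells was 4570 CPM (4280 to 4870) for Bbs8 KO and 3390 CPM (2920 to 3910) for Bbs8 WT, a log2 ratio of 0.43 (0.20 to 0.66). By set it was 4620, 4410, 4520, 4710 and 4520 CPM in Bbs8 KO and 4320, 4140, 4840, 2700 and 2280 CPM in Bbs8 WT. Of the 3 sets coded WT3, 1 lay above and 2 below the Bbs8 KO sets, all near them, and the 2 sets coded WT4 lay far below all others. Without the WT4 sets the log2 ratio was 0.05, and without the WT3 sets it was 0.83. Within Bbs8 WT, WT3 exceeded WT4 by 0.78 (0.35 to 1.22), with 4420 against 2570 CPM, so the difference between the mice was no larger than that between these numbers. Beside this stand the marker lists of other cells in the endothelial-like class. Mural markers summed to 1010 CPM in Bbs8 KO (sets 608 to 1450, 11 of 12 genes with UMIs) and 2360 CPM in Bbs8 WT (sets 1760 to 2850, 9 of 12), and B cell markers to 926 CPM (684 to 1300, 6 of 6) and 217 CPM (0 to 552, 5 of 6), with no overlap of the sets in either list. Stromal markers summed to 5550 CPM (4480 to 6620) and 7540 CPM (3770 to 12100), and T cell markers to 630 CPM (263 to 885) and 217 CPM (0 to 379). Their part in the receptor difference was not tested.

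The WT3 and WT4 endothelial-like cells, 80 and 86 in number, had like values in the measures taken beside this. Their endothelial markers summed to 9330 and 9170 CPM, their median depth was 258 and 285 UMIs, 48.8% and 45.3% lay in the Btnl9 cluster, mitochondrial genes gave 9.98% and 10.6% of UMIs, stromal markers summed to 6650 and 8260 CPM, and mural markers to 2470 and 2280 CPM. Kdr, Flt1, Tek and Tie1 were all lower in WT4 (log2 ratios of WT3 to WT4 of 0.69, 0.78, 0.90 and 1.13), with an interval above 0 for Flt1 (0.09 to 1.48). The split was not limited to the kinases, as Nrp2 had 446 CPM in WT3 and 97.5 CPM in WT4 (2.19, 0.27 to 4.68, 11 and 3 UMIs), whereas Nrp1 was not lower in WT4 (-0.50, -1.45 to 0.41). In Bbs8 KO the KO5 and KO6 sets had 4510 and 4600 CPM (-0.03, -0.22 to 0.17). What set the WT4 sets apart was not tested.

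Among the single receptors in endothelial-like cells, Kdr had a log2 ratio of 0.52 (0.15 to 0.91), Flt1 of 0.41 (0.06 to 0.79) and Tie1 of 0.98 (0.08 to 2.05). Kdr by set was 1820, 1720, 1630, 2010 and 1930 CPM in Bbs8 KO and 1840, 887, 1990, 1090 and 829 CPM in Bbs8 WT, so that 2 Bbs8 WT sets, both coded WT3, lay within the Bbs8 KO range. In the WT3 sets together Kdr stood at 1620 CPM and Flt1 at 1780 CPM, against 1010 and 1040 CPM in the WT4 sets. For Tek the difference did not exceed counting error (-0.10, -0.69 to 0.54), nor for Nrp2 (0.08, -0.78 to 1.04), and Nrp1 had 0.45 (0.00 to 0.93).

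**Figure D4:**
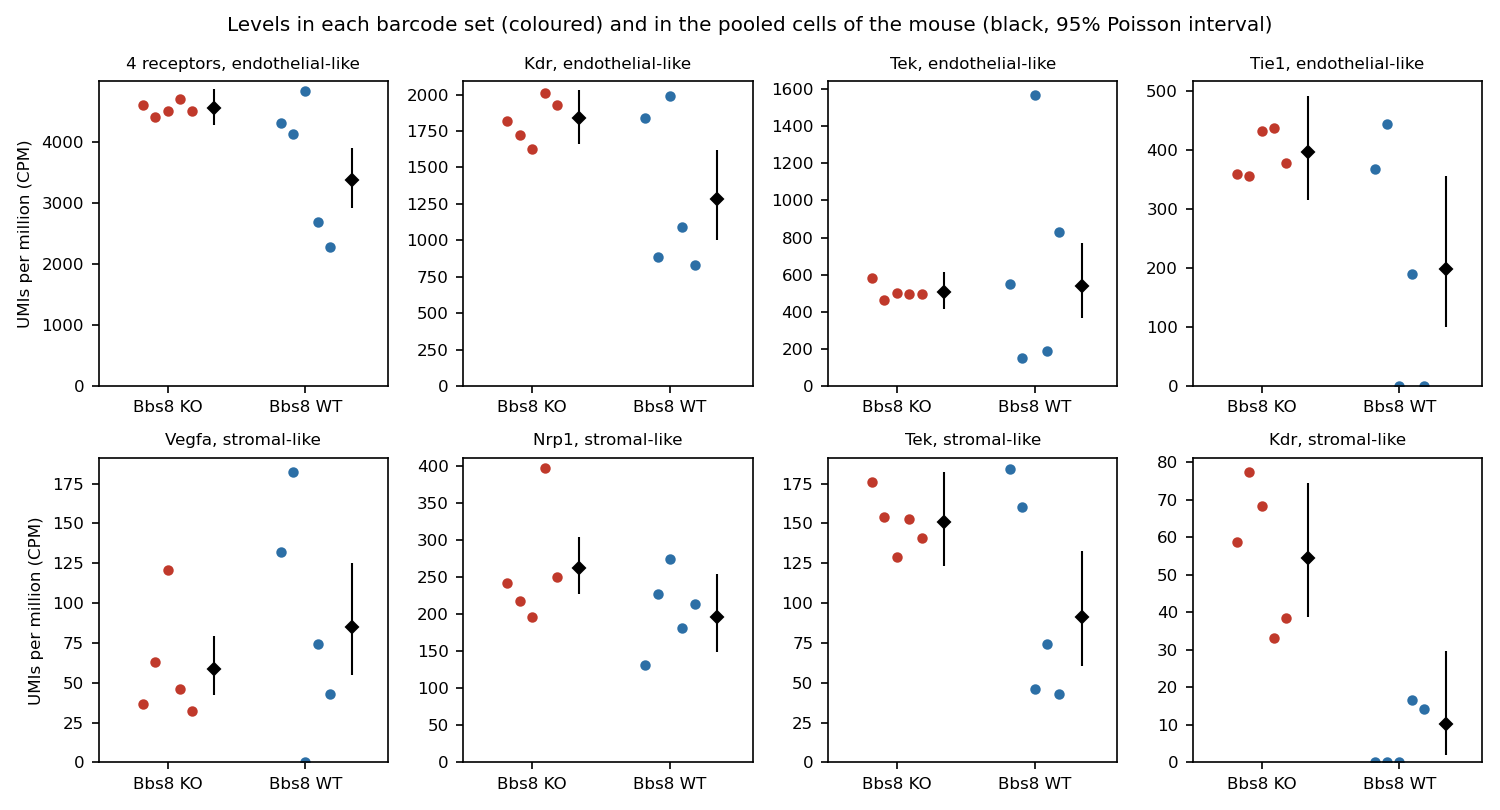
Levels (vertical axis, CPM, starting at 0) in each of the 5 barcode sets of a mouse (coloured points) and in its pooled cells (black diamonds, 95% Poisson interval) for 8 pairs of gene and class. The summed receptors of endothelial-like cells sit between 4410 and 4710 CPM in the Bbs8 KO sets and split in Bbs8 WT into 3 sets from 4140 to 4840 and 2 at 2700 and 2280 CPM. Kdr in stromal-like cells is at 33.2 CPM or more in the Bbs8 KO sets and at 16.5 or less in the Bbs8 WT sets, which hold 3 Kdr UMIs in all.

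In stromal-like cells 3 of the 10 genes were past the fold upward in Bbs8 KO (Kdr, Flt1 and Tie1), 1 downward (Vegfb), and the sets did not overlap for the same 3. Of all 8924 genes with 10 UMIs in this class, 17.9% were past it upward, 2.61% downward and 6.75% did not overlap, with 6.90% and 2.54% past it among the 3708 found in every set. Of the 10 genes, 5 were found in every set, with 2 past the fold upward (Kdr and Flt1) and 0 downward. Kdr (39 UMIs against 3), Flt1 (27 against 0) and Tie1 (11 against 0) all reached the minimum of 10 UMIs through Bbs8 KO. Kdr had 54.3 CPM in Bbs8 KO (38.6 to 74.3, 39 UMIs) and 10.2 CPM in Bbs8 WT (3 UMIs), a log2 ratio of 1.97 (0.77 to 4.76). By set Kdr was 58.6, 77.2, 68.3, 33.2 and 38.5 CPM in Bbs8 KO and 0, 0, 0, 16.5 and 14.3 CPM in Bbs8 WT. All Bbs8 KO sets were higher than all Bbs8 WT sets, of which the smallest held 21837 stromal-like UMIs, so that a value of 0 there is coarse.

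Flt1 had 27 UMIs in stromal-like cells of Bbs8 KO (37.6 CPM, sets 21.1 to 51.3) and 0 in Bbs8 WT, at least 3.70-fold higher against a floor of 3 UMIs over the class. Tie1 had 11 UMIs (15.3 CPM, sets 6.41 to 22.0) against 0, at least 1.51-fold higher, so its bound alone does not reach the fold. With these 2 at their bounds, 2 genes were past the fold upward and the median over the 10 stayed at 0.47, beside 0.21 over all genes. In the deposited table up to 2 Bbs8 WT cells with Tie1 could be missing, as described for the ligands below. The endothelial marker list moved with these receptors, at 439 CPM in Bbs8 KO stromal-like cells (sets 243 to 569, 12 of 12 genes with UMIs) and 220 CPM in Bbs8 WT (sets 78.9 to 296, 11 of 12). So did the markers of several other cells. T cell markers stood at 580 CPM (380 to 758, 8 of 8) against 152 CPM (0 to 210, 8 of 8), B cell markers at 669 CPM (608 to 723, 6 of 6) against 179 CPM (0 to 237, 5 of 6) and cycling markers at 206 CPM (166 to 276, 5 of 5) against 27.1 CPM (0 to 57.1, 3 of 5), with no overlap of the sets. Macrophage markers stood at 478 CPM (273 to 743) against 193 CPM (85.6 to 319), whereas monocyte markers stood at 294 against 335 CPM. The stromal markers themselves stood lower in Bbs8 KO, at 72400 CPM (67500 to 77400) against 84700 CPM (78200 to 96700) with no overlap of the sets, and the P2 markers at 3770 CPM (3190 to 4780) against 5450 CPM (4630 to 7690). In stromal-like cells with no UMI of that list, Kdr had 32.7 CPM (19 UMIs) against 3.87 CPM (1 UMI), Flt1 36.2 CPM against 0, and Tie1 15.5 CPM against 0. Lymphocyte-like cells, the measure of free RNA, held 18 Flt1, 15 Kdr and 3 Tie1 UMIs of 770131 for the Bbs8 KO mouse. For the other mouse they held 0, 0 and 1 of 56003, so a value of 0 there is coarse. Macrophage-like cells held 16 against 0 UMIs of Flt1 and 7 against 0 of Tie1, but 9 against 6 of Kdr. That class held 236230 and 53811 UMIs in all. The part of free RNA, or of RNA from endothelial or other cells, in the stromal-like difference was not tested beyond this.

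None of the 4 ligands differed between the mice beyond counting error in stromal-like cells. Vegfa had a log2 ratio of -0.50 (-1.28 to 0.24), Angpt1 of -0.47 (-1.65 to 0.62), which was 1.17 without the WT4 sets, Vegfc of 0.52 (-1.17 to 3.18) and Vegfb of -1.26 (-3.76 to 0.11). The deposited table bears on these 4, because in every set hardly any gene was found in 1 or 2 cells, as if genes seen in fewer than 3 cells of a set had been set to 0. At the Bbs8 KO rate over all cells, such a minimum would leave in Bbs8 WT 69.1% of the Vegfa cells, 63.3% of Angpt1, 47.7% of Vegfc and 37.5% of Vegfb. For Tek and Tie1 it would leave 99.6% and 92.7%. It can hide cells only in sets where a gene stands at 0. In Bbs8 WT that allows at most 2 hidden cells with Vegfa beside 20 found, and 2 with Vegfb beside 11. For Angpt1 it allows 4 beside 15, and for Vegfc 8 beside 3. Divided by the shares expected at the Bbs8 KO rate, the Bbs8 WT levels put 3 of the 10 genes past the fold downward in Bbs8 KO. For Vegfa, Vegfb and Angpt1 this division raises the level by more than the hidden cells could, so the count of 3 overstates the loss. No share over all genes was taken under this division.

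Tek in stromal-like cells had a log2 ratio of 0.69 (0.10 to 1.38), which was 0.06 without the WT4 sets, as the WT3 sets together had 145 CPM and the WT4 sets 62.7 CPM. By set it was 176, 154, 129, 153 and 141 CPM in Bbs8 KO and 184, 160, 45.8, 74.1 and 42.8 CPM in Bbs8 WT, so the WT3_p1 set was the highest of all and the mice overlapped. Nrp1 had 0.41 (-0.01 to 0.87) and Nrp2 0.18 (-1.19 to 1.85). The sum of the 4 receptors was 258 CPM (222 to 298) and 102 CPM (68.5 to 145), a log2 ratio of 1.30 (0.78 to 1.95), with sets from 237 to 300 CPM in Bbs8 KO and from 45.8 to 184 CPM in Bbs8 WT.

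**Figure D5:**
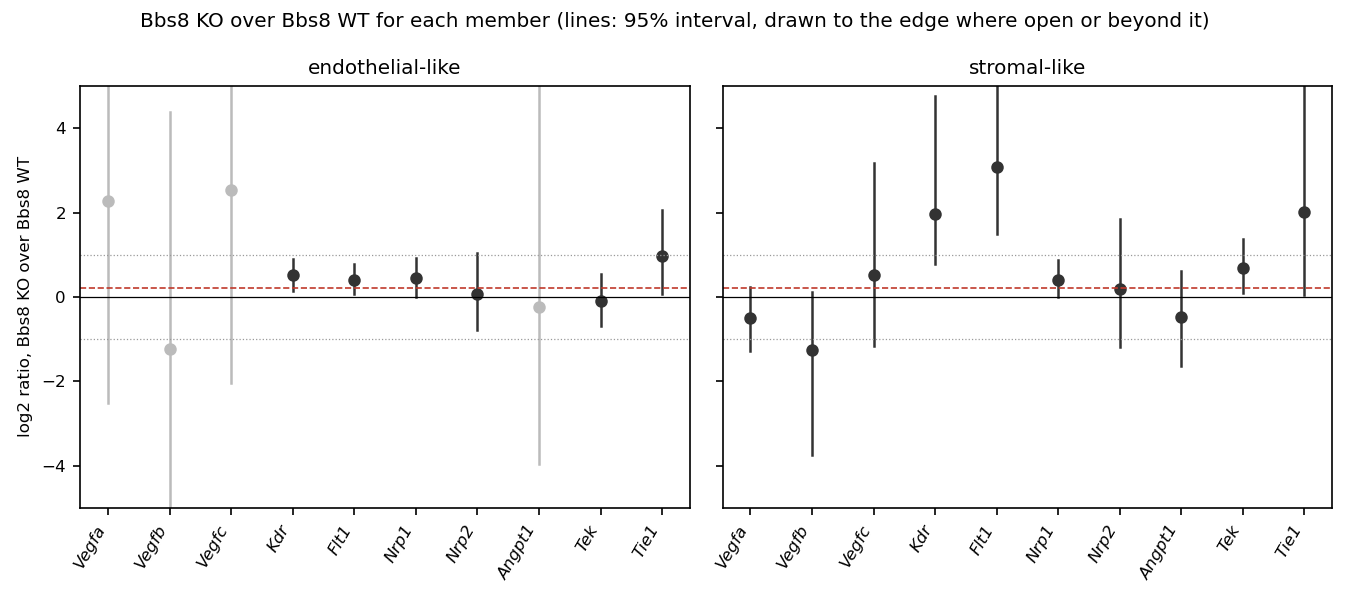
Log2 ratio of Bbs8 KO to Bbs8 WT (vertical axis, 5 CPM added) for each of the 10 genes in endothelial-like (left) and stromal-like cells (right); lines are 95% intervals of the plain ratio, grey marks genes with fewer than 10 UMIs, dotted lines the 2-fold limits and the dashed line the median of all genes (0.21). In stromal-like cells Kdr (1.97) stands above the upper limit, as do the points of Flt1 and Tie1, which had 0 UMIs in Bbs8 WT, so that their height depends on the added 5 CPM and only Flt1 passes the limit at its bound (1.89, against 0.59 for Tie1); in endothelial-like cells none of the 6 genes drawn dark does.

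In mural-like cells 5 of the 10 genes had 10 UMIs, with Kdr past the fold upward and Angpt1 downward in Bbs8 KO, and the sets of Kdr did not overlap. Of 1014 genes, 25.7% were past it upward, 14.1% downward and 5.23% did not overlap. Kdr had 11 UMIs against 0, but its 222 CPM lay under the 305 CPM that 3 UMIs would give in Bbs8 WT, so no fold can be stated and, with Kdr left out, 0 genes were past it upward. Angpt1 had -2.53 (-4.64 to -0.62), with 101 CPM in Bbs8 KO against 610 CPM in Bbs8 WT, whose sets stood at 912, 0, 0, 857 and 0 CPM. Without either of the 2 sets that hold these UMIs it no longer had 10 UMIs. In this class stromal markers summed to 7020 CPM (5280 to 8610) and 11400 CPM (4300 to 15000), B cell markers to 728 CPM (204 to 1010) and 102 CPM (0 to 456), and mural markers to 14000 CPM (12500 to 15600) and 11200 CPM (8210 to 18750), and their part in the Angpt1 difference was not tested.

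Of the wider pathway, the further ligands and receptors were 6 genes, of which 3 had 10 UMIs in stromal-like cells (1 past the fold upward, Ptprb, and 0 downward) and 3 in endothelial-like cells. There Flt4, the receptor of VEGFC, was past it upward with 15 UMIs against 0, and Angpt2 downward (42.9 and 108 CPM). Angpt2 rested on 9 and 6 UMIs and did not exceed counting error (-1.24, -2.99 to 0.44). Flt4 had no UMI in any Bbs8 WT set, where a minimum of 3 cells per set could hide up to 10 cells with it, so no fold is stated. Beside these counts stand 17.9% upward and 2.61% downward over all genes in stromal-like cells, and 24.7% and 8.70% in endothelial-like cells. The members of this and the following lists that are named for such counts alone, with fewer than 30 UMIs, were chosen after their values were seen. Vegfd, a second lymphatic ligand, had 102 and 135 CPM in stromal-like cells (-0.40, -0.99 to 0.18), with 121 and 249 CPM in the P1-like, 104 and 70.9 CPM in the P2-like and 41.5 and 80.4 CPM in the P3-like group. Ptprb, the endothelial phosphatase that restrains TEK, had 2800 and 2650 CPM in endothelial-like cells, a log2 ratio of 0.08 (-0.19 to 0.35), and 40.4 against 16.9 CPM in stromal-like cells (1.05, -0.13 to 2.98). Angpt2, which competes with Angpt1, had 37.6 and 74.5 CPM in stromal-like cells (-0.90, -1.85 to -0.10), with the sets overlapping.

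Of the 12 class 3 semaphorins and plexins, the other users of the neuropilins, 8 had 10 UMIs in stromal-like cells, 3 were past the fold upward in Bbs8 KO, 0 downward, and the sets of the same 3 did not overlap, beside 17.9% upward, 2.61% downward and 6.75% without overlap over all genes of the class. In endothelial-like cells 0 of 5 passed, beside 24.7% upward and 8.70% downward. The 3 were Sema3b with 90.6 against 16.9 CPM (2.12, 1.12 to 4.09), Sema3d with 89.2 against 30.5 CPM (1.41, 0.53 to 2.74) and Sema3e with 40 UMIs against 0. A minimum of 3 cells per set could hide up to 10 Bbs8 WT cells with Sema3e, so no fold is stated for Sema3e. At the Bbs8 KO rate such a minimum would leave 68.3% of the Sema3e cells, 81.7% of Sema3b and 83.0% of Sema3d. All 3 genes reached the minimum of 10 UMIs through Bbs8 KO, with Sema3b at 65 UMIs against 5 and Sema3d at 64 against 9. Of the 2 genes of this list with a UMI in all sets, 0 were past the fold. Sema3c, a ligand of neuropilins and a leading gene of the P1-like cluster, had 1160 and 919 CPM in P1-like cells against 79.6 and 7.09 CPM in P2-like cells. Its stromal-like log2 ratio was 0.45 (0.13 to 0.78). Sema3g had 262 and 217 CPM in endothelial-like and 445 and 406 CPM in mural-like cells. Plxnd1, a receptor for Sema3e, had 119 and 72.2 CPM in endothelial-like cells and 182 and 242 CPM in macrophage-like cells. Plxna2 had 153 and 144 CPM in endothelial-like cells (0.08, -1.07 to 1.41), and in stromal-like cells Plxna1 had 65.5 and 54.2 CPM (0.25, -0.57 to 1.19) and Plxnd1 34.8 and 30.5 CPM (0.17, -0.95 to 1.48).

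Of the 13 genes of oxygen sensing, which control Vegfa transcription in hypoxia or respond beside it, 11 had 10 UMIs in stromal-like cells (Pdk1 and Slc2a1 upward, the latter at 0 UMIs in Bbs8 WT, where up to 10 cells with it could be hidden, and 0 downward) and 6 in endothelial-like cells (0 and 0). Over all genes 17.9% were upward and 2.61% downward in the stromal-like class, and 24.7% and 8.70% in the endothelial-like class. Slc2a1 (11 UMIs against 0) and Pdk1 (17 against 2) reached the minimum through Bbs8 KO, and Pdk1 did not exceed counting error (1.29, -0.27 to 4.96). Epas1, the hypoxia factor HIF2A, was endothelial and mural, with 1160 and 1080 CPM in endothelial-like (0.10, -0.31 to 0.53) and 1070 and 508 CPM in mural-like cells. Hif1a had 72.5 and 61 CPM in stromal-like cells (0.23, -0.55 to 1.11). Adm, the vasodilator peptide adrenomedullin, had 162 and 179 CPM in stromal-like cells (-0.15, -0.63 to 0.35), Ldha 245 and 163 CPM (0.58, 0.13 to 1.09), and Egln1, an oxygen sensor, 46.0 and 54.2 CPM (-0.22, -1.14 to 0.72). Arnt, the partner of both hypoxia factors, had 40.4 and 33.9 CPM (0.22, -0.82 to 1.46), and Vhl, which marks them for degradation, 33.4 and 20.3 CPM (0.60, -0.61 to 2.30). In endothelial-like cells Ndrg1 had 396 and 577 CPM (-0.54, -1.15 to 0.09), Ldha 282 and 217 CPM (0.37, -0.53 to 1.41) and Egln1 177 and 162 CPM (0.12, -0.96 to 1.36).

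Of the 14 genes of the endothelial VEGF and Notch response, 10 had 10 UMIs in endothelial-like cells, of which 5 were past the fold upward (Notch1, Nos3, Rcan1, Unc5b and Dll4, the last at 0 UMIs in Bbs8 WT) and 0 downward, beside 24.7% upward over all genes of the class. At the Bbs8 KO rate a minimum of 3 cells per set would leave 54.0% of the Nos3 cells in Bbs8 WT, 68.3% of Rcan1, 47.7% of Unc5b and 32.6% of Dll4, against 99.2% of Notch1, the 1 gene of the 10 with a UMI in all sets. In stromal-like cells 1 of 5 passed upward, beside 17.9% over all genes. This was Unc5b (10 UMIs against 1, 1.17, -0.77 to 7.48), which reached the minimum through Bbs8 KO and did not exceed counting error. The endothelial median was 0.98, with Dll4 at a floor of 3 UMIs 0.54 (4 genes past the fold) and over the 9 genes with a UMI in both mice 0.77, beside 0.21 over all genes. A minimum of 3 cells per set could hide up to 10 Bbs8 WT cells with Dll4, so this floor may be too low for Dll4. All 5 genes past the fold reached the minimum of 10 UMIs through Bbs8 KO. They were Notch1 (45 UMIs against 3), Nos3 (23 against 2), Rcan1 (10 against 1), Unc5b (12 against 1) and Dll4 (14 against 0). At a minimum of 30 UMIs, 2 genes of all 5 pathway lists were past the fold upward in endothelial-like cells, against 8 at 10 UMIs. Notch1 had 215 against 54.1 CPM (1.89, 0.35 to 4.32), Jag2 157 against 90.2 CPM (0.77, -0.56 to 2.52) and Robo4, an endothelial guidance receptor, 344 against 415 CPM (-0.27, -0.97 to 0.47). The sets of the mice overlapped for all 10 genes. Stromal-like cells had 47.4 and 40.6 CPM of Notch1 (0.20, -0.76 to 1.31) and 57.1 and 50.8 CPM of its ligand Jag1 (0.16, -0.71 to 1.13).

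Of the 7 matrix genes listed as modulators of VEGF, 7 had 10 UMIs in stromal-like cells, with Thbs1 and Ctgf upward and 0 downward. Ctgf, with 11 UMIs against 0, reached the minimum through Bbs8 KO alone and could have up to 10 hidden cells in Bbs8 WT. In endothelial-like cells 5 had 10 UMIs, with Thbs1 and Adamts1 upward and Thbs2 downward. Both upward genes reached the minimum there through Bbs8 KO, Thbs1 with 15 UMIs against 1 (1.73, -0.71 to 7.38) and Adamts1 with 80 against 9. Over all genes 17.9% were upward and 2.61% downward in the stromal-like class, and 24.7% and 8.70% in the endothelial-like class. Thbs1, an inhibitor of angiogenesis, had 312 against 44.0 CPM in stromal-like cells (2.69, 2.02 to 3.76), with 557 against 78.0 CPM in P2-like cells. Adamts1, a protease that can bind VEGF, had 382 against 162 CPM in endothelial-like cells (1.21, 0.24 to 2.41) and 139 against 122 CPM in stromal-like cells (0.19, -0.37 to 0.78). Timp3, which blocks binding of VEGF to KDR, had 569 and 640 CPM in stromal-like cells (-0.17, -0.42 to 0.09), Sparc 8870 and 9080 CPM (-0.03, -0.10 to 0.03), Thbs2 361 and 295 CPM (0.29, -0.06 to 0.66) and Svep1 171 and 125 CPM (0.44, -0.09 to 1.02). In endothelial-like cells Timp3 had 1320 and 1750 CPM (-0.41, -0.75 to -0.06) and Sparc 4270 and 3390 CPM (0.33, 0.10 to 0.57), while Thbs2 had 7 and 4 UMIs (33.4 and 72.2 CPM).

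Genes with the most similar pattern were ranked by Pearson's r of log2(CPM + 20) over 22 units of class and mouse with at least 20000 UMIs, as a description. Closest to Kdr were Erg (0.93), an ETS factor of endothelial cells, Rbp7 (0.92) and the junction cadherin Cdh5 (0.92). Closest to Flt1 were Tspan15, Ctla2a (both 0.93) and Gpihbp1 (0.92), and closest to Tie1 were Clic5 (0.91), Palmd and Npr3 (both 0.90). Tek was closest to Npr1 (0.90), Sptbn1 (0.88) and Ehd2 (0.87). Nrp1 was closest to the broadly expressed tetraspanin Cd81 (0.91), Dusp3 (0.87) and Pros1 (0.85), and Nrp2 to Slc6a6 (0.84), Tmcc3 and 2810025M15Rik (both 0.83). Vegfa was closest to Kdelr3 (0.88), Gstm2 (0.87) and Akr1b8 (0.86), and Angpt1 to Obsl1 (0.78), Asap2 (0.77) and Slc12a4 (0.76), while Vegfb and Vegfc had too few UMIs to be ranked.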

How the data were processed

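Total SVF cells of iWAT from a Bbs8-/- and a Bbs8+/+ mouse were profiled by Seq-Well S3 after collagenase II and DNAse I digestion. The authors demultiplexed with bcl2fastq 2.20 (per the labels), aligned to mm10 with STAR in a Drop-seq pipeline, evened depth between batches and kept cells with 100 to 1000 genes and at most 20% mitochondrial UMIs, and deposited UMI counts per gene and cell. Whether the deposited counts precede the depth step is not given in the sources used here. The table held 10914 cells with 101 to 994 genes each and 14623 genes, 404 of them without a UMI. All cell columns were assigned to 1 of 10 barcode sets (0 unassigned), which match no single labelled sample, so mice were compared as wholes.

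Cells were clustered in Seurat 5.3.0 (R 4.3.3) after anchor integration of the sets (2000 features, 30 dimensions, resolution 0.8), leaving out 62 genes: the 10 and 52 of 5 pathway lists. A cluster took the name of its leading marker list at a mean log2 fold above 1, and clusters led by the stromal or a P list were then divided by the highest P list, also above 1. This threshold, and the division of the vascular cluster at resolution 0.3, were set after the clusters were seen. Scrublet (scanpy 1.11.5) marked 33 cells (0.302%), too few to have worked, and doublets were kept. UMIs were summed per mouse and class as CPM (Python 3.11.15, scipy 1.17.1). Values of 0 were read against a floor of 3 UMIs. With 1 mouse per genotype no p-value was computed, and the computations were tested on simulated data. The factors of edgeR 4.0.16 and DESeq2 1.42.0 served as alternative scalings.

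The 10 genes and the lists were chosen with earlier results of these data known. Named were all 10 genes, listed genes with at least 30 UMIs in stromal-like or endothelial-like cells, and for each of the 10 with at least 50 UMIs the 3 genes of highest correlation. Alternatives varied the clustering, the naming, the cells, the pseudocount, the UMI minimum and the scaling, and left out sets.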

Additional observations from a re-analysis of the deposited data

Results flagged for a closer look

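Nrp1 in stromal-like cells of Bbs8 KO stood at 398 CPM in the barcode set KO6_p2, above the 197 to 250 CPM of the other 4 sets. The gap to the nearest set was 0.738 of the whole range, past Dixon's 95% limit of 0.71 for 5 values. Of 15 groups of 5 sets examined this was the 1 past the limit, and chance gives about 1 in 20 groups.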

How the results depend on the processing

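No paired analysis was possible because the barcode sets carry none of the replicate numbers of the labels and no result comes from a test. The share of receptor UMIs in endothelial-like cells of Bbs8 KO (57.1%) was 60.9% with pathway genes allowed as features, 63.0% with no integration, 32.5% with cells called by their markers, 67.8% in cells with at least 200 genes, 72.9% without cells with a UMI of another lineage and 60.7% with the vascular cluster not divided. In Bbs8 WT (66.9%) it was 23.8% by markers, 73.7% without other-lineage cells, 59.0% without the WT3 and 74.1% without the WT4 sets. The share of endothelial-like cells with a receptor UMI in Bbs8 KO (63.7%) was 53.2% with no integration, 76.6% by markers, 82.0% at 200 genes, 57.3% undivided, 57.6% without KO6 and 50% when thinned. In Bbs8 WT (51.8%) it was 63.0% by markers, 66% at 200 genes, 65.3% without other-lineage cells and 40.5% when thinned. The endothelial-like log2 ratio of 0.43 was 0.14 with no integration, 0.83 without WT3 and 0.05 without WT4, whereas the stromal-like ratio of 1.30 moved within its interval. Leaving out 1 set at a time gave 55.8 to 58.5% and 63.8 to 71.6% for the receptor shares, 61.4 to 65.6% and 49.3 to 54.5% for the cells, and log2 ratios of 0.26 to 0.53 and 1.13 to 1.48.

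Counts of the 10 genes past the fold moved as follows. Stromal-like upward (3) was 5 without WT3 or WT4, 1 without KO6 and 2 to 4 without 1 set. Stromal-like downward (1) was 0 with pathway genes allowed, by markers, at 200 genes, without other-lineage cells, at a pseudocount of 20 CPM, and without WT3 or KO6, 3 after correction for a minimum of 3 cells per set, and 0 to 1 without 1 set. Endothelial-like upward (0) was 1 at resolution 1.2, without other-lineage cells, without the highest doublet scores, with TMM or DESeq2 factors and without KO5, 2 with no UMI minimum or without WT3, and 0 to 1 without 1 set. Endothelial-like downward (0) was 1 without other-lineage cells, with no minimum and undivided. Mural-like upward (1) was 2 with pathway genes allowed, with DESeq2 factors and without WT4, 3 with TMM, 5 with no minimum, 0 by markers, without other-lineage cells and without KO6, and 0 to 2 without 1 set. Mural-like downward (1) was 2 by markers and with no minimum, 0 without other-lineage cells, WT3, WT4 or KO6, and 0 to 1 without 1 set. Of the pathway lists, stromal-like upward (9) was 4 at a pseudocount of 20 CPM and 5 at 30 UMIs, endothelial-like upward (8) was 2 at 30 UMIs, and endothelial-like downward (2) was 1 and 0. The causes were not tested. Of 21 log2 ratios of the 10 genes, 8 changed sign under at least 1 alternative, all of them within counting error: Nrp2 in endothelial-like cells (0.08, under 11 alternatives, -1.21 to 1.41), Tek there (-0.10, under 5, -0.79 to 0.37), Nrp2 (0.18, -0.89 to 1.49), Angpt1 (-0.47, 1.17 without WT4) and Vegfc (0.52, -0.28 after the 3-cell correction) in stromal-like cells, and Nrp1 (0.25, -1.49 to 1.31), Flt1 (-0.16, -0.64 to 1.40) and Tek (0.81, -0.57 to 1.58) in mural-like cells. TMM and DESeq2 factors shifted all genes by -0.16 and -0.19 (log2) in stromal-like, 0.11 and 0.07 in endothelial-like and 0.80 and 0.74 in mural-like cells. The alternatives without the sets of a code, with the vascular cluster undivided and with the 3-cell correction were chosen after seeing the data. The 3-cell correction goes beyond what the sets at 0 could hide for Vegfa, Vegfb and Angpt1. Depth limits Vegfb, Vegfc and Angpt1 most.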

Other observations

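Cells of clusters that could not be named held 20.8% of the UMIs of the 4 receptors in Bbs8 KO and 11% in Bbs8 WT. Their endothelial markers summed to 1040 and 782 CPM. Kdr stood at 145 and 46.0 CPM in these cells.

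Ptprb followed Kdr and Tek between the endothelial-like clusters, with 3740 CPM (3380 to 4120) in the cluster led by Btnl9 against 1790 CPM (1540 to 2070) in that led by Plvap and Vwf in Bbs8 KO, and 3670 against 1740 CPM in the other mouse; it was among the leading genes of both clusters.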
